A study of Drosophila melanogaster with 2 samples.

Results

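Small nucleolar RNA (snoRNA) genes and the genes that contain them were examined for binding of CG8281 in Drosophila melanogaster embryos. The set was chosen from the annotation alone: 269 snoRNA genes on the chromosome arms, and the 109 genes whose bodies contain at least 1 of them, which are called hosts here, so 378 of the 18277 annotated genes. Binding was mapped by chromatin immunoprecipitation and sequencing with an antibody against GFP, in whole embryos aged 0 to 20 hours from 1 transgenic line that stably makes CG8281 with GFP at its C-terminal end. There was 1 group of 2 biological replicates and no second condition, so values are set against the other genes of the same peak lists and no test between groups of samples exists. Both replicates come from the same line and whole embryos mix all cell types, so a peak cannot be tied to a tissue.

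Most snoRNAs guide the chemical modification of ribosomal RNA in the nucleolus. Box C/D snoRNAs carry fibrillarin and direct 2′-O-methylation, and box H/ACA snoRNAs carry dyskerin and direct the change of uridine to pseudouridine, while the related small Cajal body RNAs (scaRNAs) guide the same changes in spliceosomal RNAs. In animals most are cut from introns of a longer transcript, so the promoter of the host also makes the snoRNA, and in flies some hosts, the Uhg genes, are non-coding transcripts whose known product is the snoRNAs in their introns.

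The sequences carried the letters of these classes, which checks the annotation. Box C letters (TGATGA within the first 25 bases) together with box D letters (CTGA within the last 15) were in 59 of 77 genes named Me, for methylation, and in 0 of 106 genes named Psi, for pseudouridylation. The letters ACA near the 3′ end were in 102 of the 106 Psi genes and in 2 of the 77 Me genes. Of all 269 genes, 203 held either set of letters, and Psi genes had a median length of 140 bases, against 79 bases for Me genes. Of the genes named otherwise, 21 were orphans (Or), 16 were scaRNAs and 49 had other names. The following 3 genes are shown because an optimal summit lay within 500 bp of their starts, and they are discussed with the snoRNA starts; coordinates are dm6, sequences are those of the gene's strand, and capitals mark box C and box D in the first pair and ACA in the last.
Me28S-A2486 (chr2L:5437634-5437749, minus strand): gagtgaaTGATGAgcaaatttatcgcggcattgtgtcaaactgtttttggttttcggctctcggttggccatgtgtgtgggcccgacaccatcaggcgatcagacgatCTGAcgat
U49:66Da (chr3L:8601473-8601552, plus strand): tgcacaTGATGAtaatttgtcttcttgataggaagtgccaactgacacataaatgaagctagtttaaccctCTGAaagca
Psi28S-1232 (chrX:6743675-6743815, minus strand): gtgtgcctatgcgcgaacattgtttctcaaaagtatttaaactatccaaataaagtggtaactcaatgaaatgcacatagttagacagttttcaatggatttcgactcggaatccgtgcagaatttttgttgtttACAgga

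The peaks came from 4 deposited lists. Replicate 1, replicate 2 and the pooled replicates have 30000 peaks each. The optimal list is shorter, holds the strongest peaks of the pooled list, and was selected by the irreproducible discovery rate across the replicates. Signal is the authors' value per peak with no stated scaling, so it is used to rank peaks within a list; it ran from 122.7 to 56064.5 in the optimal list with a median of 217. A gene is called when an optimal summit lies within 500 bp of any of its annotated transcription start sites (TSSs). The lists give no read counts, so sequencing depth is unknown.

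Hosts were called more often than other genes. An optimal summit lay within 500 bp of a TSS at 45 of 109 hosts, 41.3%, against 10.5% of all genes other than snoRNA genes, and these calls rested on 44 distinct peaks. Among protein-coding genes the share was 42 of 96 hosts, 43.8%, against 1666 of 13872 genes with no snoRNA, 12.0%. Of the 269 snoRNA genes, 114 lay in a called host, 42.4%. The higher share of hosts was also found in each replicate's own strongest peaks, as many of them as the optimal list holds: 45 hosts, 41.3%, against 12.0% of all genes in replicate 1, and 34 hosts, 31.2%, against 8.94% in replicate 2. With all peaks of the longer lists it was 64.2% of hosts, against 34.0% of all genes, in the pooled list, 67.0% against 37.6% in replicate 1, and 59.6% against 32.3% in replicate 2. Since cytosolic ribosomal protein genes were known from earlier work on these data to be called often, hosts were split by whether they encode such a protein.

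Ribosomal protein genes made up 20 of the 45 called hosts. Of 29 ribosomal protein genes that contain a snoRNA, 20 were called, 69.0%, against 32 of 59 that contain none, 54.2%. In the strongest peaks of the replicates these shares were 72.4% against 61.0% in replicate 1, and 44.8% against 42.4% in replicate 2, so the gap was small in replicate 2. Of the 67 other protein-coding hosts, 22 were called, 32.8%, against 11.8% of 13813 other protein-coding genes with no snoRNA. There the gap held in both replicates, with 31.3% against 13.8% in replicate 1 and 31.3% against 9.87% in replicate 2. Of 12 non-coding hosts 2 were called, 16.7%, against 5.04% of 3277 non-coding genes with no snoRNA, and 0 of the 12 were in the strongest peaks of replicate 2, against 5.1%.

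**Figure D1:**
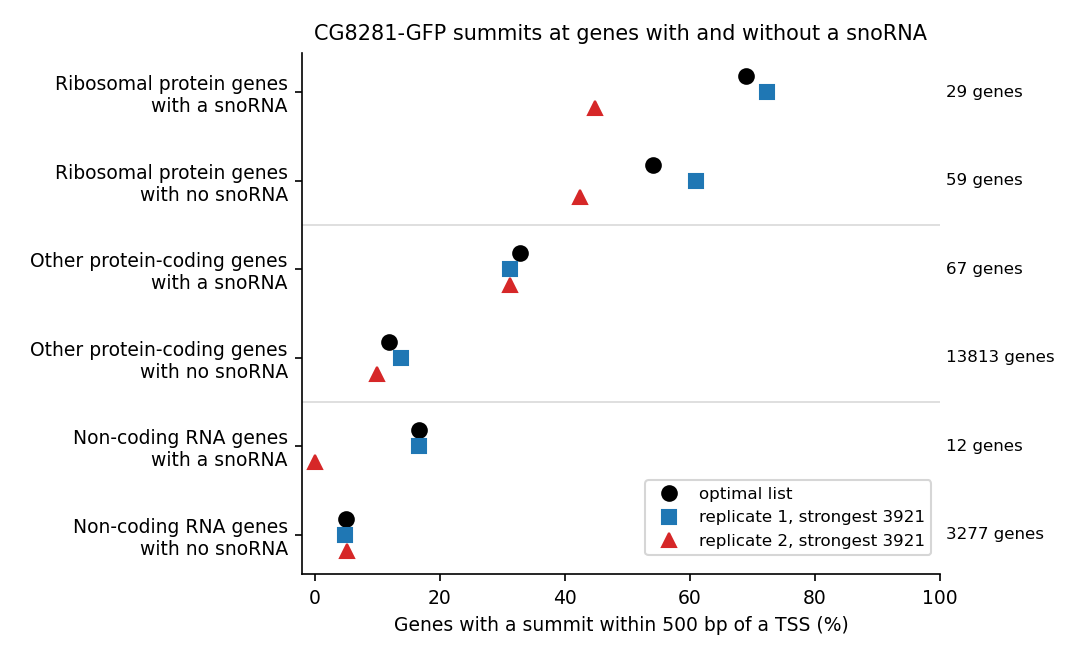
Share of genes with a summit within 500 bp of a TSS, in percent, for genes with and without a snoRNA in 3 classes; circles are the optimal list, squares and triangles as many of the strongest peaks of replicate 1 and replicate 2. Other protein-coding hosts lie at 32.8%, 31.3% and 31.3%, against 11.8%, 13.8% and 9.87% for other protein-coding genes with no snoRNA, while the ribosomal classes lie close together in replicate 2.

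Protein-coding hosts had a median of 2 annotated TSSs, against 1 for protein-coding genes with no snoRNA, and the share called moved with the number of TSSs. Within genes of 1 TSS, 16 of 45 hosts were called, 35.6%, against 8.49% of genes with no snoRNA. Within genes of 2 or 3 TSSs the share was 13 of 36 hosts, 36.1%, against 19.9%, and within genes of 4 or more TSSs it was 13 of 15 hosts, 86.7%, against 37.2%. These groups were not split by ribosomal class. The called hosts with 1 TSS were mostly ribosomal protein genes, and those with 4 or more mostly were not. The shares therefore do not show the gap of the other hosts at equal TSS number. By the strand of the snoRNA the lists differed. Of 95 hosts with a snoRNA on their own strand 40 were called, 42.1%, and of 14 genes that contain one on the opposite strand only, which would not make it from their own transcript, 5 were called, 35.7%. In the strongest peaks of replicate 1 these shares were 45.3% against 14.3%, which is 2 of the 14, and in those of replicate 2 they were 30.5% against 35.7%, so the direction changed between the replicates.

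The strongest host peaks lay at genes that encode no ribosomal protein. The strongest was at CG1142 (FBgn0037504), the host of scaRNA:MeU5-C46, with a signal of 910.5 at rank 294 of the optimal list and a summit 167 bp upstream of the TSS (3R, 7473758 to 7474109). It ranked 307 in replicate 1 and 273 in replicate 2. Stt3A, which encodes the catalytic subunit of an oligosaccharyltransferase and holds 3 guide RNA genes, followed with a signal of 720.4 at rank 409 (replicate 1 rank 441, replicate 2 rank 395). Its summit lay 396 bp upstream of Stt3A but 213 bp from a TSS of bves, so the peak could belong to either gene. Hrb98DE, an hnRNP A family RNA-binding protein gene with 7 Psi genes in its introns, had a signal of 537.0 at rank 600, and ranks of 562 and 686 in replicates 1 and 2. These 3 peaks were high in both replicates alike. CG12316, the host of scaRNA:MeU5-U42, had 402.4 with its summit 136 bp downstream of the TSS, and drn, with the pair Me18S-G1358a and Me18S-G1358b, had 385.2.

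The strongest ribosomal host peaks had signals between 265 and 377. RpL23A had 376.5, RpL28 372.9, RpS4 357.0, RpS20 351.3, RpL14 343.1 and RpL13A 334.2, and RpS16, RpL17, RpL4 and RpL30 ran from 283.8 down to 265.2. They hold guides of both kinds: RpS4, RpS20 and RpL17 hold only Psi genes (3, 2 and 4), RpL13A 2 Me genes, RpL28 1 Me gene and 4 orphans, and RpS16 3 Psi genes, 1 Me gene and 1 orphan. Hosts of other kinds among the 20 strongest included bun (366.2), a TSC-22 family gene whose snoRNA lies on the opposite strand, lola (316.7), a BTB zinc finger transcription factor gene with 4 snoRNA genes, and Msp300 (263.7), a nesprin gene. At bun, lola and Msp300 the summit lay 330 to 490 bp upstream of a TSS. The nearest snoRNA start lay 24169 bp from the bun summit, 4890 bp from that of lola and 94201 bp from that of Msp300.

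Host peaks were of middling strength in the optimal list. Called hosts had a median signal of 224, from 124.6 to 910.5, against a median of 236 for called protein-coding genes with no snoRNA. Of the 45, 23 were in the upper 1960 peaks, against 922 of the 1666 called protein-coding genes with no snoRNA. In the strongest 392 peaks was 1 host, and the count of other genes there was not computed. The other 25 called hosts and the 20 ribosomal ones had like medians, 224 and 233.

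Promoter sequences at called ribosomal hosts are shown next because many of these promoters carried letters that the choice of genes did not use. Each runs 5′ to 3′ in the direction of the gene, over 60 bases to either side of the summit but stopping 30 bases into the transcript; coordinates are dm6. Capitals mark TATCGATA, the DNA replication-related element (DRE), and CTTT within 10 bases of the TSS nearest to the summit, the core letters of the polypyrimidine initiator known from ribosomal protein genes. The first 3 hold CTTT and the next 3 TATCGATA; at RpL28, CTTT was also at the TSS but lies beyond the bases drawn. RpL17 holds neither, and is shown for the run it shares with RpL7A, described below. Only the start of that run, unmarked, falls within the bases drawn.
RpL14 (chr3L:8600915-8601035, plus strand): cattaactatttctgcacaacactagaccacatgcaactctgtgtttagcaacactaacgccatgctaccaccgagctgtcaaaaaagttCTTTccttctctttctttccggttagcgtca
RpL13A (chr3R:5624376-5624496, plus strand): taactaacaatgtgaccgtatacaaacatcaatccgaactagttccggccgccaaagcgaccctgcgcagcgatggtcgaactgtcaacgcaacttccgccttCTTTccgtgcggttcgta
RpL4 (chr3R:27922726-27922846, plus strand): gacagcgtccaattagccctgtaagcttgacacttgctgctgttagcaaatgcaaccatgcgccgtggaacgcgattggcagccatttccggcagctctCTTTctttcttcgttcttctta
RpL28 (chr3L:3222971-3223091, minus strand): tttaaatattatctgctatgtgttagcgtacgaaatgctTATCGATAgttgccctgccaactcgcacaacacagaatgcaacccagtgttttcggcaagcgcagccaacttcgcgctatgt
RpS12 (chr3L:13023300-13023381, plus strand): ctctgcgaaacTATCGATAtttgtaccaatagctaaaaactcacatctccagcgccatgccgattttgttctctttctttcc
RpS29 (chr3R:9777999-9778071, plus strand): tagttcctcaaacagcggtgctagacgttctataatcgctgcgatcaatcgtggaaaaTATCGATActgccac
RpL17 (chrX:6744209-6744309, minus strand): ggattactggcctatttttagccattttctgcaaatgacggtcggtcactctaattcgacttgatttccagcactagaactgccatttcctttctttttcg

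The initiator letters were common at ribosomal promoters whether or not they hold a snoRNA. CTTT lay within 10 bases of the TSS nearest to the summit at 15 of 20 called ribosomal hosts, 75%, and at 5 of 25 other called hosts, 20.0%. The share was 17 of 32 called ribosomal protein genes with no snoRNA, 53.1%, and 10.9% of all 1666 called protein-coding genes with no snoRNA. Around the 5′-most TSS it was 13 of 29 ribosomal hosts, 44.8%, and 47.5% of ribosomal protein genes with no snoRNA, beside 9.19% of all protein-coding genes. TATCGATA, read on both strands within 100 bases of the summit, was at 5 of 20 ribosomal host summits, 25%, and at 1 of 24 other host summits. It was at 11 of 32 summits of ribosomal protein genes with no snoRNA, 34.4%, at 4.28% of summits at protein-coding genes with no snoRNA and at 1.63% of all optimal summits. From 250 bases before to 50 after the 5′-most TSS it was in 17.4% of hosts, against 9.29% of protein-coding genes with no snoRNA and 9.36% of all protein-coding genes. By class it was in 27.6% of ribosomal hosts, against 30.5% of ribosomal protein genes with no snoRNA, and in 13.8% of other hosts. GGTCACACT, core letters of Ohler motif 1, was there in 10.1% of hosts, against 6.0% of protein-coding genes with no snoRNA, and within 100 bases of the summit in 6.82% of host summits, against 1.81%. TATAAA was in 45.9% of hosts, against 45.8%, around the 5′-most TSS. Within 100 bases of the summit it was in 1 of 20 ribosomal host summits and in 33.3% of other host summits, against 31.2% at ribosomal protein genes with no snoRNA and 38.6% at all protein-coding genes with no snoRNA. The windows of TATCGATA, GGTCACACT and TATAAA may hold more than 1 of them, and a match is a description of letters, not a binding site.

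The other hosts had summit sequences of another make-up. The median GC content within 100 bases of the summit was 44.0% at ribosomal hosts and 31.3% at other hosts, against 43.5% at ribosomal protein genes with no snoRNA and 33.8% at protein-coding genes with no snoRNA. The word TATTGA on either strand was in 0 of 20 ribosomal host summits and in 7 of 24 other host summits, 29.2%, against 9.38% of summits at ribosomal protein genes with no snoRNA, 25.7% at all protein-coding genes with no snoRNA and 25.2% of all optimal summits. This word and GACTGA were chosen after seeing which words of 6 letters were commoner at all optimal summits than 500 bases away. GACTGA was in 0 of 44 host summits, against 6.74% at protein-coding genes with no snoRNA and 12.8% of all summits. The sequences of 3 such hosts follow, drawn as above, with TATTGA in capitals where present; CG1142 had the strongest host peak, and Arpc2 holds the most snoRNA genes.
CG1142 (chr3R:7473888-7474008, minus strand): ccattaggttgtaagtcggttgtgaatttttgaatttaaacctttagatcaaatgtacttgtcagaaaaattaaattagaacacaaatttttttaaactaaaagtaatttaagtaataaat
Hrb98DE (chr3R:28600287-28600407, plus strand): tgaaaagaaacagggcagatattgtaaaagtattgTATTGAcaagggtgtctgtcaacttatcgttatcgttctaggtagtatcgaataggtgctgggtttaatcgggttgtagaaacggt
Arpc2 (chr2L:20416916-20417036, plus strand): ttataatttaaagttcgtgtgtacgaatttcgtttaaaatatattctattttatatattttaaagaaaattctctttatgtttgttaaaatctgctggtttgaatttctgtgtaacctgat

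RpL17 and RpL7A also had sequence in common. Their summit windows share an identical run of 46 bases, which begins 15 bases after the TSS in RpL17 and 1 base before it in RpL7A. The next longest run among 946 pairs of host summits was 18 bases, between RpL14 and RpS12. Reads from such a run can map to both genes, and no source used here says how the authors placed them. Both genes are on the X chromosome, and both were called, RpL17 with a signal of 268.7 and RpL7A with 138.6.

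Summits of ribosomal hosts sat close to the TSS, and those of other hosts further upstream. With negative values upstream, the median position was -22.5 bp at 20 ribosomal hosts, with 18 within 100 bp of the TSS, 90.0%. Ribosomal protein genes with no snoRNA had a median of -21 bp and 90.6% within 100 bp. The 22 other protein-coding hosts had a median of -152.5 bp with 31.8% within 100 bp, against -154 bp and 22.8% for other protein-coding genes with no snoRNA. Within each class, hosts and genes with no snoRNA lay alike, and the positions of the 2 classes of hosts overlapped. Of all 45 called hosts, 38 had the summit upstream of the nearest TSS, 84.4%. This was near the 82.5% of all called genes other than snoRNA genes and the 84.9% of called protein-coding genes with no snoRNA.

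**Figure D2:**
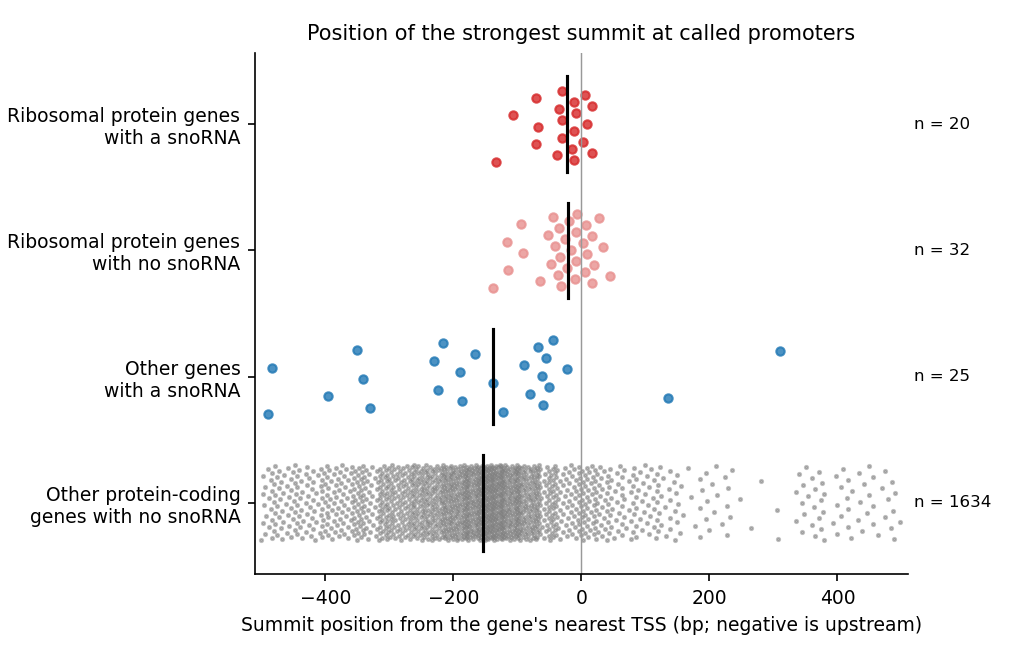
Position of the strongest optimal summit at each called promoter, in bp from the gene's nearest TSS with negative values upstream; each point is a gene, vertical bars are medians, and the classes hold 20, 32, 25 and 1634 genes. Ribosomal protein genes gather near 0 with and without a snoRNA, with medians of -22.5 and -21 bp, while other genes with a snoRNA (median -138 bp, non-coding hosts included) and other protein-coding genes with no snoRNA (-154 bp) spread further upstream.

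Several host peaks can be shared with a neighbour. The host was the gene of the nearest TSS at 36 of 45 called hosts, and another gene's TSS was nearer at 9. At 20 of the 45, another gene's TSS lay within 500 bp of the summit. The same counts were not made for other called genes, so they do not set hosts apart. At Arpc2 this nearer gene was CG10949 (58 bp). RpS6 and the pseudogene CR33222, which overlap and contain the same orphan snoRNA gene, were called through 1 peak with a signal of 128.8.

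The number of snoRNA genes in a host did not order the calls. Of hosts with 1 snoRNA gene 24 of 69 were called, 34.8%, of those with 2 to 4 it was 15 of 25, 60%, and of those with 5 or more 6 of 15, 40.0%. The last 15 hold 133 snoRNA genes, 48 of them in called hosts. The 6 were Hrb98DE, Uhg4, RpL28 and RpS16, described above or below, with Arpc2 and RpS7. Arpc2, which encodes a subunit of the actin-nucleating Arp2/3 complex, holds 17 Psi genes, the most of any host. Its signal was 224.0 at rank 1881, with ranks of 2101 in replicate 1 and 1911 in replicate 2. RpS7 holds 7 Psi genes and had 160.4 at rank 2835, with ranks of 2228 and 3807 in replicates 1 and 2.

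The other 9 of these large hosts were not called, and they differed in what the longer lists held. No list had a summit within 500 bp of a TSS of Uhg1 (16 snoRNA genes), Sf3b3 (9), CG10576 (5) or lncRNA:CR45184 (5); the last shares its snoRNA genes with Sf3b3, a splicing factor gene. RpS5a, with 14 Psi genes, had a replicate 1 peak at rank 1396 and none in replicate 2 or the pooled list. The chromatin remodeller gene dom (15) likewise had a replicate 1 peak, at rank 4100, and no other. The translation regulator gene kra (8 Psi genes) had peaks in all 3 longer lists, at rank 5549 in the pooled list, 3090 in replicate 1 and 4706 in replicate 2. These were not the same peak. The replicate 1 summit (5601318) was nearest to another kra TSS than the replicate 2 and pooled summits (5600630 and 5600636), and its peak did not overlap theirs. Nop60B (7), the fly dyskerin gene, had ranks of 8962, 8154 and 8260 in those lists. Uhg5 (11) had a pooled summit only, at rank 10714. So Nop60B had overlapping peaks in both replicates, and kra had a different peak in each. Both genes stood below the length of the optimal list in the pooled list, while RpS5a and dom rested on replicate 1.

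Of the 7 non-coding Uhg hosts 2 were called, 28.6%, beside 5.04% of non-coding genes with no snoRNA and 10.5% of all genes other than snoRNA genes. Uhg4 holds 4 Me genes, 1 Psi gene and 2 orphans, and had a signal of 452.6 at rank 752 with its summit 45 bp upstream of the TSS. It ranked 525 in replicate 1 and had no peak in replicate 2. Uhg8, with the 3 copies Me18S-U1356a to c, had 143.4 at rank 3253, a summit 187 bp upstream, and ranks of 2926 in replicate 1 and 5173 in replicate 2; a TSS of CG5199 lay 242 bp from this summit. Beside Uhg1 and Uhg5, the genes Uhg3 and Uhg7 had no summit within 500 bp of the TSS in any list, and Uhg2 had 1 in replicate 1 at rank 8707. Uhg7 overlaps RpL23A and its 4 snoRNA genes are the same ones; its TSS lay 1415 bp from the nearest optimal summit.

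**Figure D3:**
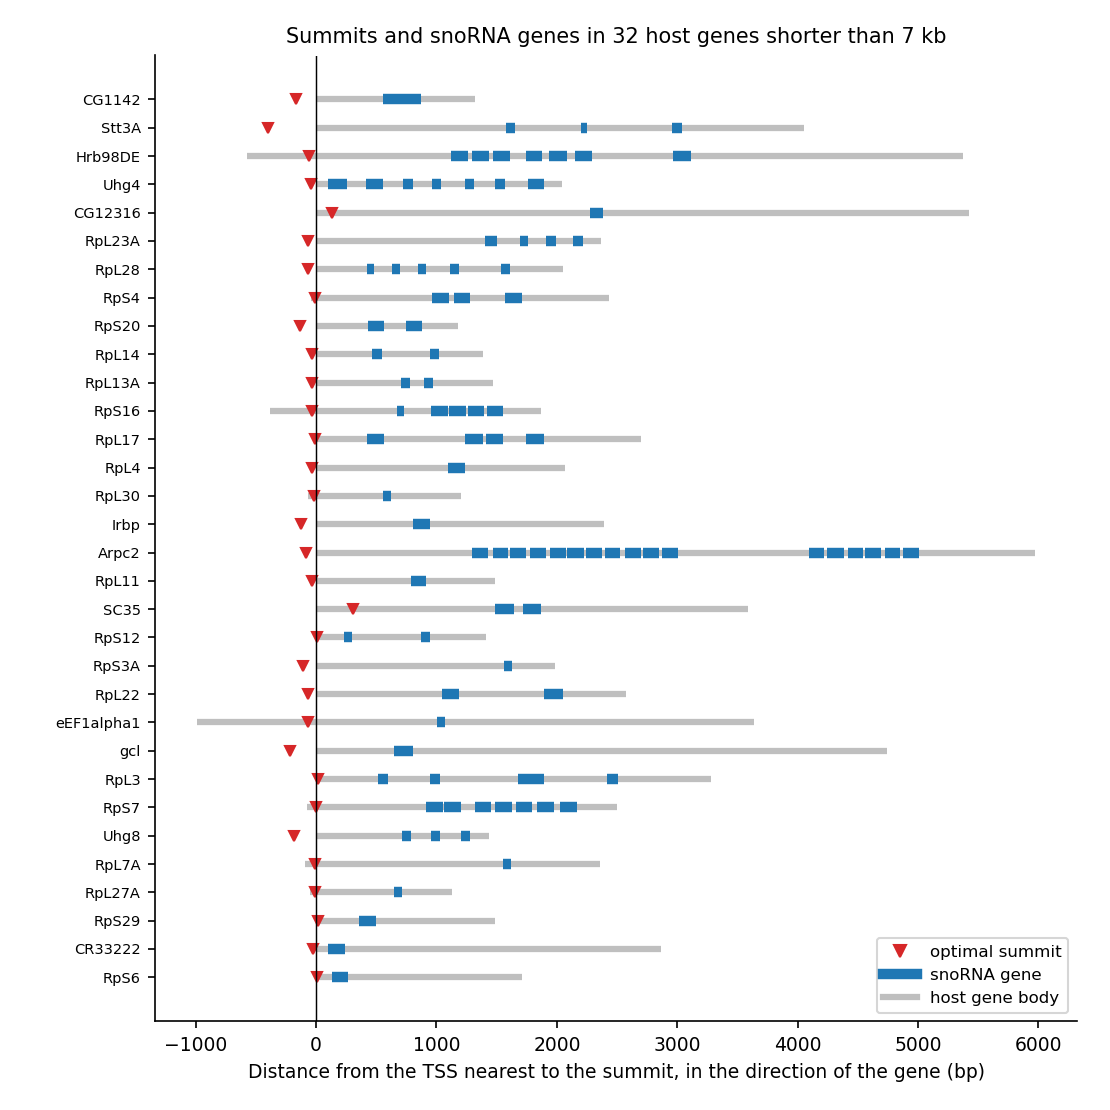
Map of 32 called hosts shorter than 7 kb with a snoRNA on their own strand, in order of signal; the axis is the distance in bp from the TSS nearest to the summit, in the direction of the gene, with triangles for optimal summits, dark blocks for snoRNA genes and grey bars for gene bodies. Summits stand near a TSS because the rule for calling a host requires it. Most snoRNA genes lie further in, as at Arpc2, where 17 lie in the gene body.

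Summits counted at hosts mostly lay apart from the snoRNA genes themselves. This follows largely from the rule, which takes summits within 500 bp of a TSS, while most snoRNA genes start further in. At 36 of the 45 called hosts the summit was over 500 bp from every snoRNA start, with a median distance of 1115 bp and a shortest of 122 bp. An optimal summit lay within 500 bp of the start of 13 of 269 snoRNA genes, 4.83%, through 12 distinct peaks. This was near the background: 4.93% of non-coding RNA genes, 4.14% of tRNA genes, 3.12% of 32 snRNA genes and 10.3% of protein-coding genes had a summit as close to the gene start, and 2.74% of all arm bases lay that close to a summit. In the pooled list the count was 38 snoRNA genes, 14.1%, against 27.9% of non-coding RNA genes and 35.5% of tRNA genes. In replicate 1 it was 18.6%, against 28.4% and 17.9%, and in replicate 2 it was 13.4%, against 27.3% and 55.5%. The median snoRNA gene lay 5733 bp from the nearest optimal summit.

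The called starts were mostly starts near a host promoter. Of the 13, 10 lay in a called host, and 9 of these were called through the very peak counted at the host TSS. They were Psi28S-2949 and Or-aca5 in Uhg4, Or-CD11a in RpL28, U49:66Da in RpL14, Me28S-A774b in RpS12, Psi18S-1275 in RpS29, Me18S-C1096 in RpL3, Psi28S-1232 in RpL17 and Or-aca2 in RpS6. At U49:66Da, whose sequence is given above, the summit lay 498 bp before the start, and at Psi28S-1232 434 bp before it. Of the 13 summits 11 were on the 5′ side of the snoRNA gene, with a median of 434 bp before the start, and 4 were within 250 bp. In all, 33 snoRNA genes started within 500 bp of an upstream host TSS, 8 of them among the 13, while the median snoRNA start was 1465 bp from that TSS. The tenth, Or-ACA6, lies in egr, which encodes the TNF ligand Eiger, on the opposite strand, and its peak (signal 240.8) differs from the one at the egr TSS (137.0).

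At 3 snoRNA genes a peak had no host promoter beside it. scaRNA:MeU1:95C-A24, which lies in no annotated gene (2L, 901976 to 902082), had a signal of 504.7 at rank 653, with ranks of 654 in replicate 1 and 904 in replicate 2. Its summit lay 438 bp downstream of its start, beyond its 3′ end. Me28S-A2486, in an intron of lncRNA:CR31647, was the only one with a summit inside the snoRNA gene, 26 bp from its start, with a signal of 128.8 at rank 3681, and ranks of 5278 and 3167 in replicates 1 and 2. The gene abba-a, in an intron of tn, had 156.8 at rank 2918, with rank 12503 in replicate 1 and no summit in replicate 2. Of the 12 snoRNA genes in no gene, which have no annotated host transcript, scaRNA:MeU1:95C-A24 alone had an optimal summit. A pooled summit lay at 7 of the 12, 58.3%, against 14.1% of all snoRNA starts. In replicate 1 it was 3, 25%, against 18.6%, and in replicate 2 it was 9, 75%, against 13.4%; 3 of these 9 starts share 1 replicate 2 peak, at rank 4202.

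By the type of snoRNA, the shares in a called host differed, but snoRNA genes of 1 host share its promoter and are not separate observations. Psi genes had 51 of 106 in a called host, 48.1%, Me genes 30 of 77, 39.0%, orphans 14 of 21, 66.7%, scaRNA genes 5 of 16, 31.2%, and the others 14 of 49, 28.6%. Of the 51 Psi genes, Arpc2 alone holds 17 and Hrb98DE and RpS7 hold 7 each.

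The replicates ranked the ribosomal host peaks differently. Of the 18 called ribosomal hosts with a summit in both replicates, 16 had a weaker rank in replicate 2, with medians over all that had one of 1738 in replicate 1 and 2769 in replicate 2. Of the 22 other hosts with both, 11 were weaker in replicate 2. Over all hosts this was 27 of 40, 67.5%, against 63.9% of called protein-coding genes with no snoRNA. Ranks were not compared for ribosomal protein genes with no snoRNA. Their share in the strongest peaks fell from 61.0% in replicate 1 to 42.4% in replicate 2. That fall was not particular to ribosomal protein genes. The share of all genes other than snoRNA genes fell from 12.0% to 8.94%, and that of other protein-coding genes with no snoRNA from 13.8% to 9.87%. RpL28 ranked 577 in replicate 1 and 4313 in replicate 2, with summits at different positions, -43 and -265 bp from the TSS (negative is upstream). RpL17 went the other way, with ranks of 1738 and 1349 and summits at -28 and 14 bp. RpL11, outside the rule for named genes and chosen after its values were seen, ranked 1988 and 23148, with summits at -11 and 166 bp. No replicate 2 summit was found at 4 called hosts, Uhg4, RpL27A and CRAT among them, 8.89% of those called, against 12.8% of called protein-coding genes with no snoRNA. RpS3A alone lacked a summit in replicate 1. RpL27A, CRAT and RpS3A were also named after their values were seen.

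**Figure D4:**
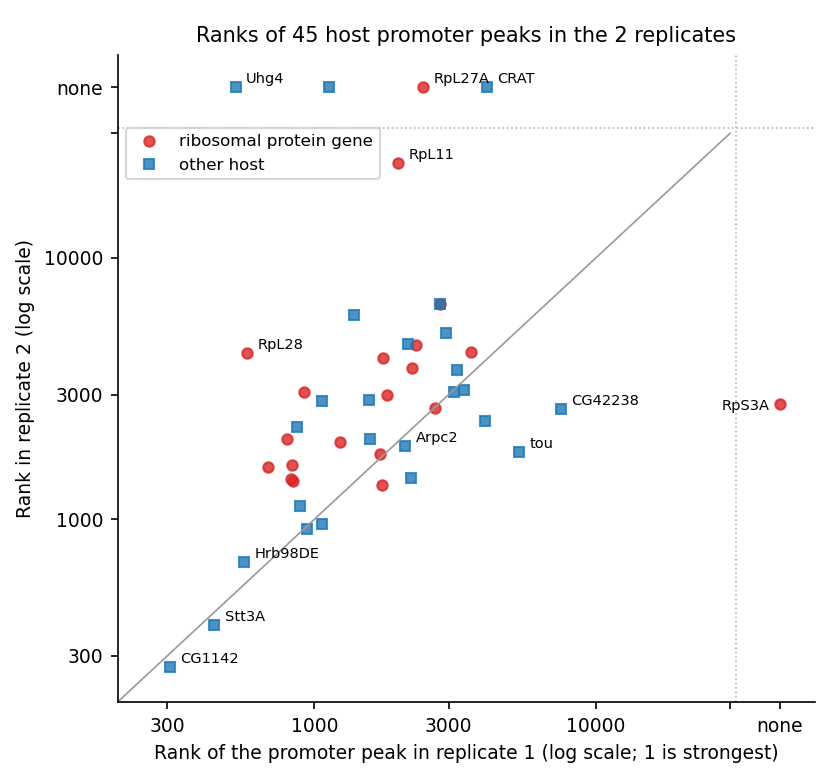
Rank of each called host's promoter peak in replicate 1 and in replicate 2, where 1 is the strongest of 30000, on log axes; circles are ribosomal protein genes, squares other hosts, the line marks equal ranks, and points at none had no summit in that replicate. CG1142, Stt3A and Hrb98DE lie near the line, while most ribosomal protein genes lie above it, with weaker ranks in replicate 2. The summits ranked in the 2 replicates can differ in position, as at RpL28 and RpL11.

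Some of the 64 hosts not called had weaker or single-replicate peaks. A summit within 500 bp of a TSS was found in the pooled list at 25 of them, 39.1%, against 26.3% of all 16117 genes not called, snoRNA genes left out. In replicate 1 there was one at 29, 45.3%, against 30.5%, and in replicate 2 at 24, 37.5%, against 25.8%, and 24 hosts had none in any list. The best pooled rank among them was 4833, at Fib. All 9 ribosomal hosts not called had a replicate 1 summit, and 4 had one in replicate 2. With the called ones this made 28 of 29 ribosomal hosts in replicate 1, 96.6%, against 81.4% of ribosomal protein genes with no snoRNA, and 23 in replicate 2, 79.3%, against 76.3%. For the edge of the 500 bp window, the closest hosts inside were lola (490 bp) and egr (483 bp) and the closest outside CG42564 (507 bp) and stet (549 bp). For snoRNA starts they were U49:66Da (498 bp) and Me18S-C1096 (494 bp) inside, and Or-CD13 (543 bp) and Psi18S-1295 (563 bp) outside.

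The genes of the snoRNP pathway were called about as often as other genes. Of a list of 23 symbols for snoRNP proteins, their assembly factors and snoRNA processing factors, 20 matched the annotation and 3 were called, 15%, beside 12.2% of all protein-coding genes. The 3 were Pih1D1 (signal 652.2, rank 461, summit 233 bp upstream, ranks 311 and 769 in replicates 1 and 2) and pont (529.2, rank 613, 139 bp upstream, ranks 927 and 481), whose human orthologues act in the R2TP complex that assembles box C/D particles, and Nopp140 (137.5, rank 3418, 71 bp upstream), a nucleolar phosphoprotein gene. The other two R2TP genes on the list were not called: rept had a summit in replicate 2 alone, at rank 21463, and spag had none in any list. The genes of the core box C/D proteins were not called: Fib, the methyltransferase gene, ranked 4833 in the pooled list, and nop5, which also hosts a snoRNA gene, had rank 1261 in replicate 1, rank 7500 in replicate 2 and no pooled summit, while Nop56 had no pooled summit. Of the core box H/ACA genes, Nop60B and NHP2 had pooled summits at ranks 8962 and 19359, and NHP2 ranked 1402 in replicate 1 with no summit in replicate 2. In all, 8 of the 20 had a pooled summit, beside 36.3% of all protein-coding genes.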

How the data were processed

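Chromatin immunoprecipitation was done by the authors on CG8281-GFP embryos with sonicated fragments of 200 to 800 bp, per the labels. Per the deposited text files, each replicate's peaks and the pooled peaks were called against a control alignment on dm6 and combined into the optimal list; no source used here names the aligner, the peak caller or its thresholds. The columns deposited hold a signal score per peak of unstated scaling, the −log10 of a q-value, which was not used, and the summit offset in bases. Summit positions are the interval start plus that offset. Depth per sample is unknown, and precision is limited by the 2 replicates.

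Genes, TSSs and exons were from Ensembl release 115 on the arms with the matching genome sequence. A host is any gene whose body contains a snoRNA gene, on either strand. Cytosolic ribosomal protein genes were matched by symbol, those named as like another gene left out. The strongest summit in the window was taken. Counts, shares and medians are descriptive, with no test and no p-value. Words were read on both strands except CTTT. Scripts ran on Python 3.11.15 with pandas 2.3.3, NumPy 2.4.6 and Matplotlib 3.10.9, and the assignment was tested on simulated data.

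Members, lists and alternatives were chosen with earlier results of these data known. Named are the 20 strongest called hosts, Uhg genes, hosts of 5 or more snoRNA genes with their snoRNA genes, snoRNA genes bound away from host promoters, bound snoRNP genes and those nearest the window's edge; any others were chosen after their values were seen, and 2 hosts are counted but not reported by name here. Alternatives were single replicates, peak strength, windows of 250 and 1000 bp, interval overlap in place of the summit, the 5′-most TSS, same-strand hosts and leaving out ribosomal protein genes.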

Additional observations from a re-analysis of the deposited data

How the results depend on the processing

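Of the 46 alternative values computed, 35 stayed within 1.5 times the main count and 11 did not. In the stronger 1960 optimal peaks, 23 hosts, 22 protein-coding hosts and 7 snoRNA starts were called, against 922 protein-coding genes with no snoRNA, 6.65%. In the 7842 strongest pooled peaks, 2654 protein-coding genes with no snoRNA were called. Leaving out ribosomal protein genes gave 25 of 80 hosts, 22 of 67 protein-coding hosts and 65 snoRNA genes in a called host. Called snoRNA starts numbered 4 with a window of 250 bp, 38 with 1000 bp and 7 without replicate 1. Shares of tRNA and other non-coding gene starts at 250 and 1000 bp were not computed, so the 4 and 38 have no such background beside them. Over the replicates taken singly the counts ran from 34 to 45 for hosts, 34 to 42 for protein-coding hosts, 91 to 135 for snoRNA genes in a called host and 7 to 11 for snoRNA starts, against 1388 to 1941 for protein-coding genes with no snoRNA. The cause of these changes was not tested. No paired analysis was possible because there is 1 group. With no read counts, a peak missing from a list cannot be told apart from one below its length limit.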

Other observations

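Hosts that the replicates' own lists named without the optimal list were few, and were chosen after their values were seen. In the strongest peaks of both replicates, taken to the length of the optimal list, were 28 hosts, 27 of them also in the optimal list. The exception was mask, which encodes an ankyrin repeat protein and hosts 1 scaRNA gene. It ranked 2563 in replicate 1 and 3040 in replicate 2, with no pooled summit within 500 bp of a TSS. RpS5a, kra and nop5 were, for example, in the strongest peaks of replicate 1, but not in the optimal list, and CG3902 and CG4238 in those of replicate 2. Of the called hosts, 14 were not among the strongest of replicate 2 and 5 not among those of replicate 1. CRAT was among neither. Such overlaps of lists were not counted for other called genes, so they do not set hosts apart. The strongest peaks reached fewer genes in replicate 2 in general, 8.94% of all genes other than snoRNA genes, against 12.0% in replicate 1.

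Peak widths did not set the hosts apart. Peaks narrower than the commonest width, 404 bp, were at 23 of 45 called hosts, 51.1%, against 52.6% of all optimal peaks. The median width was 248 bp at ribosomal hosts and 404 bp at the other called hosts. The counts of narrower peaks were nonetheless alike, 11 of 20 ribosomal hosts and 12 of 25 other called hosts.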
